A study of Mus musculus with 6 samples.

Results

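Interscapular brown adipose tissue (iBAT) is a heat-producing fat depot of the upper back, and the data described here are its transcriptome in control mice. The libraries were chosen by genotype alone: 3 of the 6 RNA-seq libraries of the study carried the label WTAPflox/flox, and all 3 were used as replicates 1 to 3. They came from C57BL/6 mice aged 8 weeks on a normal chow, whose Wtap gene has loxP sites on both sides of exon 4. Their genotype names no Cre recombinase, so the allele is floxed but not deleted, and the mice are not plain wild type. The other libraries came from Wtap-BKO mice, in which the floxed mice were crossed to a Cre inserted into the Ucp1 gene, and they were not used for any value below. The replicates are biological, n stands for independent mice, and pooling of animals is described only for other assays of the study. With a single group of 3 libraries the data give levels, ranks and spread, and no test between conditions was made.

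Brown adipocytes burn fatty acids and glucose in densely packed mitochondria and release the energy as heat. Uncoupling protein 1 (UCP1) lets protons re-enter the mitochondrial matrix without making ATP, and noradrenaline from sympathetic nerves drives the process through β-adrenergic receptors and cyclic AMP. The cells also share the lipid storage and secretory program of white adipocytes, and the pad contains capillaries, nerves, fibroblasts and resident immune cells. Total RNA was extracted from the whole pad for sequencing. Fewer cells of a type and less RNA per cell therefore cannot be told apart in any level below.

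Levels are given in FPKM, read fragments scaled by the annotated exon length of the gene and by the size of the library, for replicates 1, 2 and 3 in that order or as mean ± SD (n = 3). The libraries held 19005123, 16508497 and 15979694 reads assigned to genes, recovered from the FPKM values and the gene lengths. Between 12187 and 12308 of the 55703 annotated genes reached 1 FPKM in a library. 11260 genes did so in every library, of which 9924 were protein-coding, 456 lncRNA genes and 567 pseudogenes. At this depth the counting error of a gene at or above 1 FPKM had a median coefficient of variation (CV) of 0.0489.

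The labelled tissue was checked against its defining markers. Ucp1 (ENSMUSG00000031710, chr8:83290352-83298452, build GRCm38.p6) had 1650.5, 2072 and 1586 FPKM. Cidea, a lipid droplet protein abundant in brown fat, had 2170.3, 2049 and 1722 FPKM. Fabp4, the fatty acid binding protein of adipocytes (ENSMUSG00000062515, chr3:10204088-10208576), had 1549, 1594 and 1505 FPKM, and Adipoq, the hormone adiponectin (ENSMUSG00000022878, chr16:23146536-23158028), had 805, 874 and 735 FPKM. All 4 markers ran high in all 3 libraries, with ranks by mean FPKM of 19 for Ucp1, 16 for Cidea, 22 for Fabp4 and 41 for Adipoq. Epithelial keratins and adhesion genes were near 0, with none of 8 at 1 FPKM. Xist stayed at or below 0.0137 FPKM, while the Y-linked Ddx3y had 20.7, 20.5 and 17.3 FPKM.

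Each library stood apart from the other 2 in its own set of genes, and these sets touch several results below. Replicate 1 was high in immediate early genes and in enzymes of fatty acid synthesis. Replicate 2 carried skeletal muscle transcripts that the others nearly lacked. Replicate 3 was high in leptin and other white adipocyte genes, in vascular, stromal, macrophage and erythroid markers and in mitochondrially encoded RNA, and low in most nuclear genes of mitochondrial metabolism.

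The sequence upstream of 4 genes is shown because Ucp1 defines the tissue and because Dio2, Fos and Irf4 were each highest in replicate 1, the library that stood apart in immediate early genes. Each run covers 250 bases before to 50 bases after the RefSeq start on build GRCm38.p6, written 5′ to 3′ on the gene's own strand. Capitals mark TATAAA on the gene's strand, and TGACG or its reverse complement CGTCA, the core of the cyclic AMP response element, on either strand.
Ucp1, chr8:83290098-83290397, plus strand: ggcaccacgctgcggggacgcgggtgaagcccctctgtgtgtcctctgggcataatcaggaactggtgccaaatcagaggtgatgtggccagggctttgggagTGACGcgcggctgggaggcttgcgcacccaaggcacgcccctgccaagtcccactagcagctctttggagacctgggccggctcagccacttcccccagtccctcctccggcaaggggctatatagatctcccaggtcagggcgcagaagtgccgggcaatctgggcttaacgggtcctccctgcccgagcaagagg
Dio2, chr12:90738989-90739288, minus strand: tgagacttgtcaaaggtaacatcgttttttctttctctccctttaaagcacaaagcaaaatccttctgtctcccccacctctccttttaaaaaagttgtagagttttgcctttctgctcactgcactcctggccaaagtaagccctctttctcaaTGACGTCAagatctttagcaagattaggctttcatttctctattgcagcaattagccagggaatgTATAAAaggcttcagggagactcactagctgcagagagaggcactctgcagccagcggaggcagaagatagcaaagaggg
Fos, chr12:85473640-85473939, plus strand: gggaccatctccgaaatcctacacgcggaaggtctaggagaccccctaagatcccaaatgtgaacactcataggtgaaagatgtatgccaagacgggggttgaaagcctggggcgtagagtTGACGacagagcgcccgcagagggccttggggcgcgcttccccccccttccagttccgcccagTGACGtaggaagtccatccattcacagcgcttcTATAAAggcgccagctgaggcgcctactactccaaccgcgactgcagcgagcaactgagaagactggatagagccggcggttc
Irf4, chr13:30748983-30749282, plus strand: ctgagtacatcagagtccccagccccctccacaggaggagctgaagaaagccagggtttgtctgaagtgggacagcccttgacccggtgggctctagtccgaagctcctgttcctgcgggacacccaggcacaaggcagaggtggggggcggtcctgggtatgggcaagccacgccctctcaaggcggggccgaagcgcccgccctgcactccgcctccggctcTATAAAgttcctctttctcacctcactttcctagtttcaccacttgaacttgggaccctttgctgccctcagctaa

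In Dio2, which encodes the deiodinase that makes active thyroid hormone, the capitals held the full element TGACGTCA from base -95 to base -88 relative to the start and TATAAA from -30 to -25. Fos had TATAAA from -33 to -28 and TGACG at 2 places, and Irf4 had TATAAA from -26 to -21 and no TGACG in this window. Ucp1 had TGACG once, starting at -147, and no TATAAA. On either strand, TATAAA was held by 14.2% of the 27025 promoters in the table, TGACG by 21.02% and TGACGTCA by 1.88%. Among genes averaging 1 FPKM or more here these shares were 6.91%, 33.1% and 3.35% of 8620 promoters. Of the immediate early genes, 12 of 20 with a promoter in the table held TGACG. A match describes the letters of the window and not a bound site.

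Mitochondrially encoded genes supplied 19.8 ± 2.24% of reads, and 6 of the 10 genes with most reads were among them. The first, mt-Co1, a core subunit of cytochrome c oxidase, took 7.54% to 9.64% of reads alone. The 10 genes with most reads of each library took 21.9 ± 1.68% of them, the first 100 took 37.4 ± 1.25% and the first 1000 took 63.6 ± 0.680%. By FPKM, 35 genes averaged at least 1000 and 419 at least 100, against a median of 5.59 FPKM over the 12276 genes that averaged 1 or more.

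Among the 30 genes with the highest mean FPKM, 14 were mitochondrially encoded and 16 nuclear. The nuclear set was a mixture of lipid, heat and respiration genes. It was led by Scd1, the stearoyl-CoA desaturase, at 4285, 2392 and 1654 FPKM and Cox8b, a cytochrome oxidase subunit of brown fat and muscle, at 2454, 3524 and 2351 FPKM. Cfd (the secreted protease adipsin) averaged 2315 ± 219 FPKM, Gpx3 (the plasma glutathione peroxidase) 2303 ± 452 FPKM, and Cox6a1 1990.3 ± 203 FPKM. Cidea and Ucp1 followed, with means of 1980.5 ± 232 and 1769 ± 264 FPKM, which placed Ucp1 at rank 19 over all genes and at rank 7 over nuclear protein-coding genes. Its rank was 19, 15 and 20 in replicates 1, 2 and 3, and it took 0.283 ± 0.0448% of reads.

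Further nuclear genes of that set served fat and fuel metabolism. Gpd1, which makes glycerol 3-phosphate, averaged 1621 ± 166 FPKM. Acaa2, the thiolase that ends a round of β-oxidation, averaged 1575 ± 45.1 FPKM and Acadl, the long-chain acyl-CoA dehydrogenase that begins one, 1155 ± 106 FPKM. Pnpla2, the triglyceride lipase ATGL, averaged 1158 ± 58.9 FPKM, within 1 SD of Acadl. Car3, a carbonic anhydrase of fat and muscle, averaged 1309 ± 195 FPKM. Cox8a (1542 ± 166 FPKM) and Atp5b, the catalytic subunit of ATP synthase (1480.5 ± 62.97 FPKM), differed by less than the SD of Cox8a. Acaa2, Fabp4 and Atp5b were the steadiest of the nuclear genes in the set, and Scd1 was the most variable, with a CV of 0.489 and an average of 2023 FPKM without replicate 1. The short mitochondrial tRNA genes mt-Tp, mt-Tc and mt-Tn also reached the top 30, with FPKM values that rest on very short lengths.

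**Figure D1:**
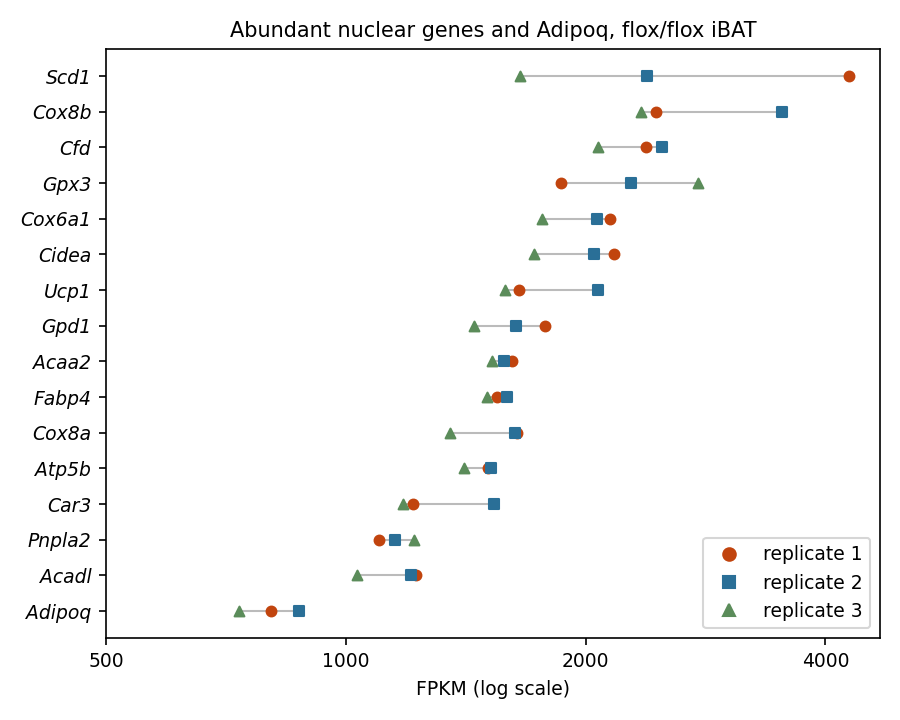
FPKM on a log axis of 15 of the 16 nuclear genes among the 30 highest and of Adipoq, with 1 point per library. The 3 libraries lie close together for Fabp4 (1549, 1594 and 1505) and far apart for Scd1 (4285, 2392 and 1654).

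Of 25 genes listed as brown adipocyte genes, 23 averaged at least 1 FPKM, and their levels spanned 0.101 to 2776 FPKM. After Cox8b, Cidea and Ucp1 came Cox7a1, another cytochrome oxidase subunit, with 642, 824 and 645 FPKM and Pdk4, the kinase that turns off pyruvate dehydrogenase, with 646, 654 and 538 FPKM. The potassium channel Kcnk3 had 132, 152 and 128 FPKM and Letmd1, a mitochondrial protein needed for brown fat function, 128, 112 and 92.2 FPKM. The regulators and markers of the lineage were far lower. Ebf2, which opens brown adipocyte enhancers, had 15.6, 15.4 and 9.31 FPKM and was lowest in replicate 3. Prdm16, a coregulator of the brown lineage, had 3.56, 2.98 and 3.62 FPKM. Zic1, a marker of the classical brown depot, had 2.39, 2.32 and 2.35 FPKM, and Lhx8, another such marker, 1.57, 1.55 and 2.33 FPKM. Prdm16 and Zic1 were about level in all libraries.

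Some members known for their induction by cold were low or uneven, unlike Ucp1. Elovl3, an elongase of very long fatty acids, had 1.68, 0.964 and 0.192 FPKM, which corresponds to 60, 31 and 6 reads. Fgf21, a secreted metabolic hormone, had 0.174, 0.129 and 0 FPKM. Bmp8b, a secreted factor of thermogenic fat, had 0.0711, 0.0633 and 0.0163 FPKM, so that both lay far below 1 FPKM throughout. Dio2 had 21.2, 10.01 and 5.16 FPKM, and Ppargc1a, the coactivator PGC-1α, had 8.15, 17.1 and 7.32 FPKM. Dio2 and Elovl3 were highest in replicate 1 and lowest in replicate 3, while Ppargc1a, like Ucp1, was highest in replicate 2.

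The program shared by all adipocytes was abundant. 19 of 21 general adipocyte genes averaged at least 100 FPKM and 6 at least 1000, with a median of 418 FPKM and a median CV of 0.103, against 0.0892 for all genes at 100 FPKM or more. Pparg, the nuclear receptor that drives adipogenesis, had 91.9, 104 and 84.3 FPKM, and Cebpa, its partner, 431, 409 and 414 FPKM. Retn, the hormone resistin, was the lowest member at 17.6, 16.4 and 18.8 FPKM. The range between libraries reached 2-fold in 1 of 21, Scd1, against a background of 8.74% of genes and 4.06% of genes at 100 FPKM or more, so that the members were about as even as other abundant genes. 14 of them were lowest in replicate 3, against 41.2% of all genes, and 10 against 28.1% on total reads without mitochondrially encoded genes.

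The white adipocyte list was at the other end. 7 of 14 genes averaged at least 1 FPKM, 2 had no read, and the median was 1.0 FPKM. The developmental genes Wt1 and Hoxc10 were at 0 in all libraries and Hoxc9 was at or below 0.0505 FPKM. Lep, the hormone leptin, had 9.08, 7.29 and 32.3 FPKM. Nnat, neuronatin, had 11.9, 9.03 and 44.7 FPKM, and Npr3, the natriuretic peptide clearance receptor, had 8.88, 10.4 and 19.9 FPKM. All 7 members that averaged at least 1 FPKM were highest in replicate 3, a position held by 30.8% of genes. Lep in this library was 3.94 times and Nnat 4.26 times the mean of the other 2, and without it Lep averaged 8.18 FPKM. The median of the list lay below those of the brown and general adipocyte lists in every library.

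The 82 nuclear genes listed for the subunits of the 5 respiratory complexes took 4.02 ± 0.270% of reads, against 19.1 ± 2.16% for the 13 mitochondrially encoded mRNAs. Complex IV (cytochrome c oxidase) had the highest median, 541 FPKM over 15 genes. Medians were 464 FPKM for complex II (succinate dehydrogenase, 4 genes), 437 for complex III (cytochrome bc1, 9 genes), 192 for complex I (NADH dehydrogenase, 37 genes) and 132 for complex V (ATP synthase, 17 genes). The order of neighbouring medians rests on few genes, and the ranges of the complexes overlapped broadly.

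Complex IV is built with tissue-specific isoforms, and for subunits 7a and 8 the isoforms of brown fat and heart exceeded the ubiquitous ones. Cox8b exceeded Cox8a 1.80 ± 0.335-fold and Cox7a1 exceeded Cox7a2 2.51 ± 0.177-fold, while Cox4i1 exceeded the lung-type Cox4i2 by 88.2 to 172-fold (ratios within a library, mean ± SD or range). The muscle isoform Cox6a2 had 0, 18.1 and 0.279 FPKM, nearly all of it in replicate 2, which also carried the muscle transcripts. Cox7b went the other way, with 492, 477 and 791 FPKM and its highest value in replicate 3.

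In complex I, the accessory subunit Ndufa1 had 401, 473 and 378 FPKM and Ndufb11, another, 430.4, 439.7 and 379 FPKM, not separated beyond their spread. Leaving out genes whose span overlaps another gene made Atp5h the first in complex V. The Ndufa12 values of 80.6, 100.1 and 34.2 FPKM were lowest in replicate 3 and had a range of over 2-fold, the only such range among the 36 members that averaged 1 FPKM or more. In complex II the flavoprotein Sdha and the membrane anchor Sdhd were level with each other, at 560.01 ± 49.9 and 558 ± 77.5 FPKM. Complex III ran from Uqcr10 (677 ± 83.3 FPKM) and the iron-sulphur protein Uqcrfs1 (653 ± 99.4) down to Uqcrc2 (311 ± 33.8) except for Uqcrc1.

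A few subunits stood far below their partners in the same complex. Ndufs3, a core subunit of complex I, was represented by 1 read over all 3 libraries, and its overlapping neighbour Kbtbd4 by 0. Uqcrc1, a core subunit of complex III, had 8.73, 8.86 and 8.16 FPKM against 339, 320.2 and 273 FPKM for its partner Uqcrc2. Atp5a1, which forms the ATP synthase head together with Atp5b, had 23.4, 22.3 and 29.2 FPKM against 1510.3, 1523 and 1408 FPKM. Atp5g1, Ndufb2 and Atpif1 (an inhibitor of the synthase) averaged 1.49, 2.73 and 4.12 FPKM. Atp5b exceeded Atp5a1 60.4 ± 10.6-fold, although their proteins occur in equal number in the enzyme.

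The share of a gene's 75-base transcript windows that also occurs in another gene was 0% for Uqcrc1, 1.68% for Atp5a1, 3.97% for Ndufb2, 7.29% for Atp5g1 and 12.2% for Ndufs3. The share of exon bases covered by another gene's exons was between 0% and 7.94% for the same 5 genes. Atpif1 had more of both, with 19.9% of windows shared and 33.7% of exon bases overlapped. The windows came from annotated transcripts and left out the gene models that the table adds without a name. 1 of these, on the patch sequence CHR_MG191_PATCH, had 6.99, 15.6 and 38.9 FPKM. It spanned positions 90894627 to 90904711 on the minus strand, nearly those of Ndufs3 on chromosome 2, 90894634 to 90904827 on the same strand, so the level of Ndufs3 is uncertain. None of the other low subunits had such a model over at least 50% of both spans. Overlap was far larger for Slirp, a mitochondrial RNA-binding protein at 0.782, 0.554 and 0.775 FPKM, with 88.9% of windows shared and 97.8% of exon bases overlapped. The length that FPKM divides by, all annotated exons of a gene together, was 4135 bases for Uqcrc1 and 4912 for Atp5g1. Read counts, which are not divided by that length, were 1784 for Uqcrc1 and 39996 for Uqcrc2 over the 3 libraries. The part of mapping or counting in these low values was not tested.

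**Figure D2:**
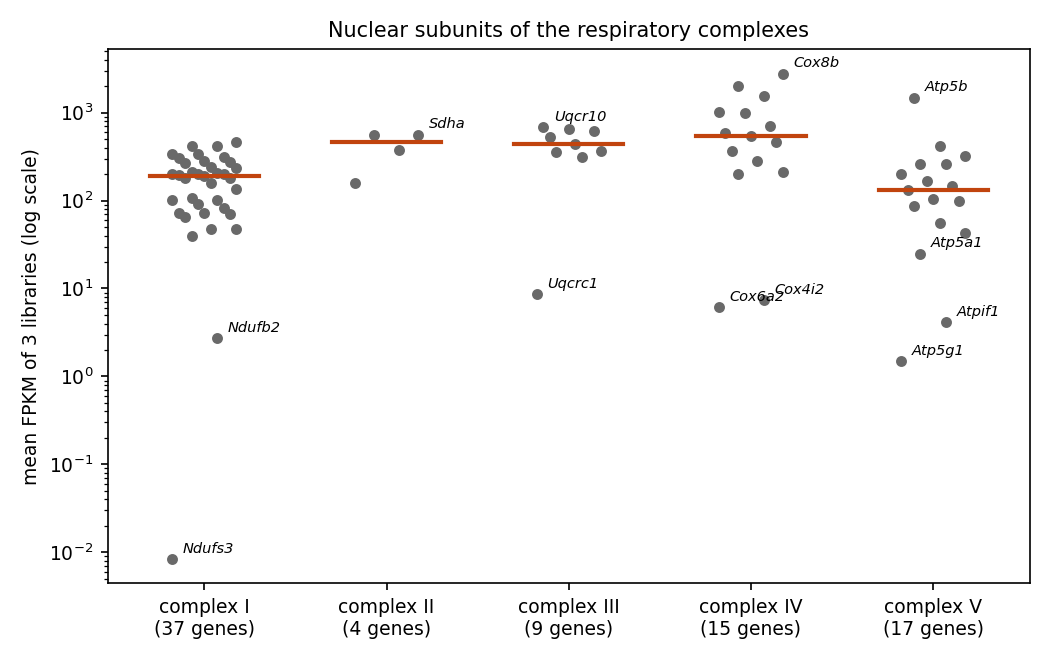
Mean FPKM over the 3 libraries (log axis) of each nuclear subunit, by respiratory complex, with the median of each complex as a bar. Cox8b and Atp5b lead their complexes at 2776 and 1480.5 FPKM, while Ndufs3, Ndufb2, Uqcrc1, Atp5g1 and Atpif1 lie below 10 FPKM.

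The mitochondrially encoded mRNAs, which are cut from common precursor transcripts, differed by orders of magnitude in FPKM. mt-Co1 had 53646, 49462 and 63185 FPKM, mt-Cytb 31515, 30512 and 34851 FPKM and mt-Nd1 20817, 19311 and 22213 FPKM. At the low end mt-Co2 had 1828, 1012 and 1375 FPKM, mt-Co3 537, 749.8 and 348 FPKM and mt-Nd3 362, 434 and 786 FPKM. Most of the low values fell on mRNAs whose sequence occurs elsewhere in the annotation, but not every such mRNA was low. For mt-Co2, mt-Co3, mt-Atp6, mt-Nd3 and mt-Nd4l, between 97.8% and 99.9% of 75-base windows were also found in another gene, against 0% for mt-Cytb, 0% for mt-Nd1 and 39.8% for mt-Co1. mt-Atp8, which shares no window but overlaps mt-Atp6 over 21.1% of its bases, was lowest at 38.95, 37.6 and 55.6 FPKM.

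The matching copies were measured as genes of their own. A run of mitochondrial pseudogenes on chromosome 1 included Gm10925 at 472, 597 and 758 FPKM, Gm28661 at 259.7, 288 and 275 FPKM and Gm29216 at 179.6, 253 and 268 FPKM, with 100%, 100% and 96.9% of their windows shared. Reads from a gene and from a near-identical copy cannot be told apart in such windows. The levels of mt-Co2, mt-Co3, mt-Atp6, mt-Nd3, mt-Nd4l and the pseudogenes are therefore uncertain. The same holds for Mpc1-ps (635, 511 and 414 FPKM, 83.98% shared) beside its parent Mpc1, a subunit of the mitochondrial pyruvate carrier (35.1, 30.3 and 26.01 FPKM), and for Gpx4-ps2 (234, 199 and 203 FPKM) beside Gpx4 (547, 517 and 503 FPKM).

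**Figure D3:**
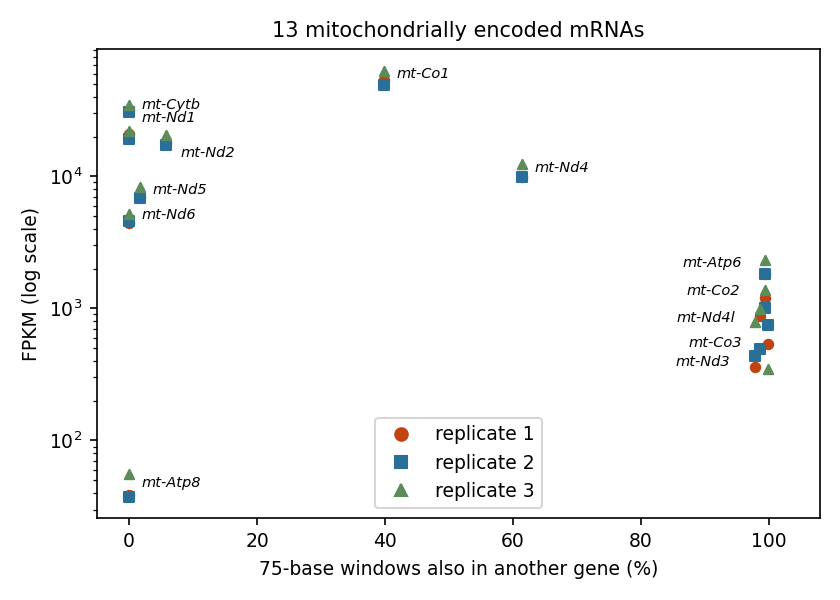
FPKM (log axis) of the 13 mitochondrially encoded mRNAs in each library against the percentage of their 75-base windows that another annotated gene also contains. The 5 mRNAs at 97.8% or more lie between 348 and 2317 FPKM, and of the others only mt-Atp8 lies lower.

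Ucp1 was the main uncoupling protein gene. It exceeded Ucp3 37.8 ± 5.80-fold and Ucp2 114 ± 33.5-fold, with Ucp3 at 49.7, 57.7 and 35.8 FPKM and Ucp2 at 17.2, 13.6 and 17.1 FPKM. Of the ADP/ATP carriers, which also conduct protons, Slc25a5 had 320.5, 290.2 and 263 FPKM and Slc25a4 179.6, 187 and 158 FPKM, while the germline form Slc25a31 was at 0. In other routes of heat production, Atp2a2, the calcium pump SERCA2, had 54.3, 54.3 and 46.8 FPKM. The creatine kinase Ckb had 26.1, 28.3 and 59.03 FPKM, highest in replicate 3, and the creatine transporter Slc6a8 had 16.3, 18.2 and 12.7 FPKM. The SERCA inhibitor Sln was at 0, and Gatm, the first enzyme of creatine synthesis, averaged 0.0606 FPKM. The muscle forms were high in replicate 2 alone, with 0.190, 72.6 and 0.710 FPKM for the pump Atp2a1 and 0.0758, 45.1 and 0.261 FPKM for the kinase Ckm.

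Fuel oxidation genes were high throughout. All 22 genes of the tricarboxylic acid cycle averaged over 30 FPKM and 21 of them at least 100, with a median of 262 FPKM. Ogdh, a subunit of a matrix dehydrogenase of the cycle, averaged 432 ± 7.12 FPKM, citrate synthase Cs 421 ± 32.01 FPKM and Sucla2 399 ± 23.3 FPKM. Sucla2, the ADP-forming succinyl-CoA synthetase subunit, contrasted with the GDP-forming Suclg2 at 31.98 ± 2.30 FPKM. Pdhb, a pyruvate dehydrogenase subunit, varied most, with 289, 205 and 148 FPKM. In β-oxidation 16 of 24 genes averaged at least 100 FPKM, led by Acaa2, Acadl, Etfa (747 ± 39.8) and Acadm (487 ± 42.7). The lowest 2 were the isoforms of the entry enzyme, Cpt1b at 17.3, 11.8 and 13.1 FPKM and Cpt1a at 2.65, 2.95 and 2.88 FPKM. Cpt2, the next enzyme, had 146, 136 and 114 FPKM.

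Catabolism of branched-chain amino acids was led by Pccb (220.4 ± 6.63 FPKM), Dld (204 ± 29.1) and Aldh6a1 (139 ± 15.2), and the mitochondrial importer of these amino acids, Slc25a44, had 37.97, 38.6 and 33.9 FPKM. Among glucose genes, Aldoa (625 ± 66.2 FPKM), Pdk4 (613 ± 64.4) and Ldhb (364 ± 31.3) were highest. The insulin-responsive transporter Slc2a4 exceeded Slc2a1 36.8 ± 7.11-fold and Hk2 exceeded Hk1 15.2 ± 5.82-fold. Gapdh, a glycolytic enzyme often used as a reference, had only 5.45, 20.4 and 6.27 FPKM, far below its neighbours in the pathway Aldoa and Pgk1 (249 ± 21.3 FPKM). 22.6% of its windows were shared with other genes, and its counts were 408, 1371 and 409 reads. Its high value fell in the library with muscle transcripts, and the cause of its low level was not tested.

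Lipid handling combined synthesis, storage and release. The last enzyme of triglyceride synthesis, Dgat2, had 1016, 989.9 and 857 FPKM and exceeded Dgat1 10.2 ± 2.04-fold. Pck1, an enzyme on the route from small precursors to glycerol 3-phosphate, had 1170.1, 1033 and 1060.1 FPKM. Glycerol kinase Gk had 12.7, 20.1 and 15.3 FPKM. The lipases followed one another along the pathway: Pnpla2 1158 ± 58.9 FPKM, Lipe 243 ± 25.8 FPKM and Mgll 113 ± 11.3 FPKM. G0s2, the inhibitor of Pnpla2, averaged 436 ± 118 FPKM and Abhd5, its activator, 11.5 ± 0.356 FPKM. Among lipid droplet proteins Plin1 averaged 319 ± 27.5 FPKM, Plin4 184 ± 7.97, Plin2 137 ± 43.9 and Plin5 119 ± 13.7. Of the fatty acid uptake genes, Cd36, the fatty acid translocase, averaged 561 ± 64.9 FPKM and Lpl, lipoprotein lipase, 356 ± 39.99 FPKM. Next to Fabp4, the muscle and brown fat form Fabp3 had 732, 951 and 1328 FPKM, highest in replicate 3, and Fabp5 24.4, 21.6 and 22.1 FPKM. Of acetyl-CoA carboxylases, the mitochondrial-surface form Acacb exceeded the cytosolic Acaca in every library, by 1.65 to 4.24-fold.

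Few adrenergic receptors were abundant. Adrb3, the β3 receptor of adipocytes, had 49.1, 51.4 and 51.97 FPKM in 3 closely matching libraries. Adrb1, the β1 receptor, had 30.8, 8.41 and 11.6 FPKM and was highest in replicate 1. Of the α receptors Adra1d averaged 24.1 ± 4.60 and Adra1a 13.2 ± 6.19 FPKM, while the α2 genes Adra2a, Adra2b and Adra2c and also Adra1b stayed below 0.2 FPKM in every library. Downstream, the regulatory subunit Prkar2b of protein kinase A had 417, 395 and 305 FPKM, 6.41 ± 1.11-fold more than Prkar1a, and the catalytic subunit Prkaca had 170.2, 159.7 and 147 FPKM. Adcy6 was the highest adenylyl cyclase at 57.2, 60.4 and 60.7 FPKM.

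Of 1580 genes that the table assigns to a transcription factor family, 771 averaged at least 1 FPKM. Cebpa was the highest with 431, 409 and 414 FPKM, then Ybx1 with 220.1, 209 and 194 FPKM and Cebpb with 269, 139 and 152 FPKM. 31 of 48 nuclear receptors averaged at least 1 FPKM and 7 had no read. Pparg and Ppara, the receptor of fatty acid oxidation genes, were level with each other, with a ratio of 1.04 ± 0.0385. They were followed by Nr1d1, the clock repressor REV-ERBα, at 57.8, 57.2 and 58.2 FPKM. Esrra, a regulator of respiratory genes, had 65.6, 54.8 and 52.1 FPKM, level with Nr1d1. Thra, the thyroid hormone receptor α, had 36.3, 38.1 and 30.6 FPKM. Thra exceeded Thrb 5.66 ± 0.140-fold and Ppargc1b exceeded Ppargc1a 2.06 to 4.24-fold. Nr4a1 had the highest mean of all receptors, 115 FPKM, through replicate 1 alone, with 269, 27.4 and 50.1 FPKM. Without that library Ppara and Pparg were highest.

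The factors of mitochondrial gene expression were modest beside the genes they serve. Tfam, which packages mitochondrial DNA, had 11.7, 10.4 and 8.89 FPKM. The mitochondrial RNA polymerase Polrmt had 9.76, 11.1 and 11.7 FPKM and Lrpprc, which stabilises mitochondrial mRNA, 21.3, 19.00 and 18.4 FPKM. The mitochondrial ribosomal proteins had a median of 18.98 FPKM over 78 genes against 93.3 FPKM over 85 cytosolic ones. Mrpl34 was highest of the mitochondrial set at 286, 274 and 213 FPKM.

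Cfd and Adipoq were highest in the list of 22 secreted factors, which does not hold Gpx3. Vegfa, the main angiogenic factor, had 241, 197 and 233 FPKM and Vegfb, a relative linked to fat metabolism, 120.2, 116 and 131 FPKM. Angptl4, an inhibitor of lipoprotein lipase, had 201, 206 and 252 FPKM, not separated from Vegfa beyond their spread. Nrg4, a factor enriched in brown fat, had 24.1, 22.5 and 20.9 FPKM. Il6 and Slit2 stayed below 0.2 FPKM in every library. Of long non-coding RNAs, the nuclear speckle RNA Malat1 had 167, 153 and 172 FPKM and Lncbate10, named for brown fat, 52.01, 53.4 and 47.6 FPKM. Neat1, the scaffold of paraspeckles, had 25.5, 28.7 and 62.3 FPKM and was highest in replicate 3.

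Markers of other cells were present at lower levels. Endothelial genes had a median of 34.6 FPKM, with Cdh5, the junction protein VE-cadherin, at 74.4, 75.6 and 98.4 FPKM and Gpihbp1, which holds lipoprotein lipase on capillaries, at 53.3, 54.96 and 72.6 FPKM. The pericyte gene Rgs5 had 118, 123 and 166 FPKM, and the basement membrane collagens Col4a1 and Col4a2, the highest of 44 collagens, had means of 135 ± 43.8 and 109 ± 28.98 FPKM, highest in replicate 3. Fibroblast genes had a median of 10.2 FPKM, with Ly6a at 58.9, 64.3 and 77.4 FPKM and Col3a1 at 51.2, 49.5 and 62.6 FPKM. Dlk1, a preadipocyte marker, was at 0, while an unnamed gene model at similar positions of a patch sequence had 0.114, 1.11 and 3.12 FPKM.

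Of the immune lists, macrophage genes were clearest, with Lyz2 at 70.9, 79.7 and 111 FPKM, C1qa at 29.2, 35.2 and 44.3 FPKM and Adgre1 (F4/80) at 3.34, 4.001 and 5.79 FPKM. 2 of 11 T and NK cell genes and 3 of 7 neutrophil genes averaged at least 1 FPKM. Globin transcripts were present, with Hba-a1 at 186, 264 and 444 FPKM. S100b, a gene of Schwann cells that brown adipocytes also express, had 32.02, 35.6 and 33.9 FPKM while the Schwann cell factor Sox10 had 0.633, 0.584 and 1.33 FPKM. Th and Dbh, the enzymes of noradrenaline synthesis, were at or near 0. Proliferation genes were low, with Mki67 at 0.543, 0.415 and 1.29 FPKM.

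The libraries agreed closely for most genes and sharply disagreed for a few. Over the 12276 genes averaging 1 FPKM or more the median CV was 0.117, and the 10th and 90th percentiles were 0.0398 and 0.345. The biological coefficient of variation, an estimate of the spread beyond counting error, was 0.122. It was fitted to a different statistic from the median CV, so the values are not a whole and its part. Pearson's r of log2 FPKM across genes was between 0.936 and 0.948 for the 3 pairs of libraries, a description in which genes are not replicates. The pairs differed well beyond counting error, with chi-square values 30.03 to 50.4 times their degrees of freedom, so no library was a copy of another. A range of at least 2-fold between libraries was seen in 1073 genes, which is 8.74%. It was seen in 4.47% of protein-coding genes and 32.5% of genes of other types. Leaving out the skeletal muscle, immediate early and fatty acid synthesis lists gave 1031 such genes of 12218. Spread was larger at low levels, with a median CV of 0.160 between 1 and 5 FPKM and 0.0892 at 100 FPKM or more.

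Replicate 1 was at least 2-fold above both others, with 0.1 added to each FPKM, in 138 of 12276 genes, or 1.12%. The like counts were 117 genes (0.953%) for replicate 2 and 112 (0.912%) for replicate 3. Of the 138 genes, 59 were protein-coding and 15 were immediate early genes, the first to be transcribed after a stimulus. The zinc finger factor Egr3 had 25.8, 1.60 and 1.60 FPKM and Egr1 55.4, 9.39 and 11.1 FPKM. Fos, a subunit of the factor AP-1, had 21.2, 1.57 and 3.29 FPKM, and the stress-responsive factor Atf3 had 25.4, 3.42 and 4.18 FPKM. Replicate 1 was 16.2 times the mean of the other 2 for Egr3 and 6.68 times for Atf3. Nr4a2, an orphan receptor of the same family as Nr4a1, had 22.5, 3.77 and 2.37 FPKM. Sik1, a kinase induced by cyclic AMP, had 59.8, 7.03 and 10.2 FPKM, and Ccn1, a secreted matrix protein, 132, 16.8 and 21.4 FPKM. In all of these replicate 1 stood clear of the other 2. Without replicate 1 Nr4a1 averaged 38.7 FPKM and Egr3 1.60 FPKM. Of the 24 immediate early genes at 1 FPKM or more, 19 were highest in replicate 1, against 36.1% of all genes, and the exceptions were Klf4, Klf6, Ier5, Myc and Ccl2. Klf6, a zinc finger factor, had 18.3, 18.6 and 22.8 FPKM, and the chemokine Ccl2 had 1.21, 0.701 and 3.23 FPKM.

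The same library was high in 2 further regulators and in fatty acid synthesis. Irf4, a transcription factor that works with PGC-1α in brown fat, had 43.7, 6.54 and 2.76 FPKM. Irs2, an adaptor of the insulin receptor, had 78.7, 10.96 and 13.8 FPKM. Fasn, the fatty acid synthase, had 942, 366 and 207 FPKM and without replicate 1 averaged 287 FPKM. Acly, which supplies cytosolic acetyl-CoA, had 233, 105 and 102 FPKM, and Acaca, which makes malonyl-CoA, 80.6, 48.1 and 29.9 FPKM. 14 of 17 genes of this pathway were highest in replicate 1, against 36.1% of all genes, and 7 had a range of at least 2-fold, against 8.74%. Their regulators moved less, Srebf1 with 86.04, 62.7 and 59.4 FPKM and Mlxipl (ChREBP) with 80.7, 68.9 and 71.8 FPKM. The order over libraries was replicate 1, 2, 3 for Scd1, Fasn, Acaca and Thrsp (958, 754 and 591 FPKM). Acacb, the isoform tied to the control of oxidation, was flat at 133, 134 and 127 FPKM.

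Replicate 2 held the muscle transcripts. Acta1, skeletal muscle actin, had 0.108, 273 and 1.15 FPKM. Pvalb, a calcium buffer of fast fibres, had 0.0530, 101 and 0.183 FPKM, and Myh4, a fast myosin heavy chain, 0, 60.4 and 0.337 FPKM. Every skeletal muscle gene averaging 1 FPKM or more, 17 of 17, was highest in replicate 2, against 33.0% of all genes. The list summed to 66.4, 1089.8 and 64.1 FPKM and took 0.0157%, 0.258% and 0.0151% of reads. In the other libraries a few members remained, mainly Myl1 (33.5, 88.9 and 31.8 FPKM), Des (18.2, 27.4 and 12.7 FPKM) and Eno3 (9.36, 40.8 and 8.12 FPKM). The brown fat genes Ucp1, Cox8b, Cox7a1 and Ppargc1a were also highest in replicate 2, but the brown adipocyte list was split. Of its 23 genes averaging 1 FPKM or more, 9, 11 and 3 were highest in replicates 1, 2 and 3. The shares of all genes were 36.1%, 33.0% and 30.8%. Muscle expresses Cox8b, Cox7a1 and Ppargc1a too, and the part of muscle RNA in their higher values was not tested. The liver genes Alb (0, 3.36 and 0.0811 FPKM) and Apoa1 (0, 1.44 and 0 FPKM) were also nearly confined to this library, at low levels. Without replicate 2 Cox8b averaged 2402 FPKM and Ucp1 1618 FPKM.

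Replicate 3 was highest for 10 of 12 macrophage genes, 11 of 14 endothelial genes, 8 of 10 smooth muscle and pericyte genes, 10 of 12 fibroblast genes and 5 of 5 erythroid genes. Most listed erythroid genes share sequence with another gene, as given above, so they are not fully separate measures. Of all genes 30.8% were highest in replicate 3. On total reads without mitochondrially encoded genes this background was 43.9%, with 11 macrophage, 13 endothelial, 8 smooth muscle and pericyte, 11 fibroblast and 5 erythroid genes highest there. The shifts were a median of 0.22 on the log2 scale against the gene mean for endothelial genes and 0.26 for macrophage genes, and larger for erythroid genes at 0.58 and white adipocyte genes at 0.66. Other immune lists were mixed. 3 of 3 neutrophil genes were lowest in replicate 3, against 41.2% of all genes. 1 of 4 mast cell and 2 of 4 B cell genes were highest there. So were 2 of 2 T and NK cell genes and 11 of 18 interferon and antigen presentation genes. Igkc, the immunoglobulin κ constant region, had 17.01, 17.7 and 59.1 FPKM and Igha, the IgA heavy chain, 7.03, 5.68 and 21.5 FPKM, both highest in this library.

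The nuclear genes of mitochondrial metabolism were lowest in the same library. 34 of 36 complex I genes, 20 of 22 tricarboxylic acid cycle genes, 20 of 24 β-oxidation genes, 19 of 20 branched-chain amino acid genes and 64 of 76 mitochondrial ribosomal proteins were lowest in replicate 3. The background was 41.2% of all genes, compared with 31.4% lowest in replicate 1 and 27.4% in replicate 2. Mitochondrially encoded mRNAs ran opposite, with 11 of 13 highest in replicate 3 and 21.6% of reads there against 18.04% and 17.7% in replicates 1 and 2. Whether these reads were part of the quantity that the FPKM were scaled to was not given in the sources used here, and the counts were repeated on total reads without mitochondrially encoded genes. The background for replicate 3 then fell to 28.1%, with 24 of 36 complex I genes and 16 of 22 tricarboxylic acid cycle genes still lowest there.

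**Figure D4:**
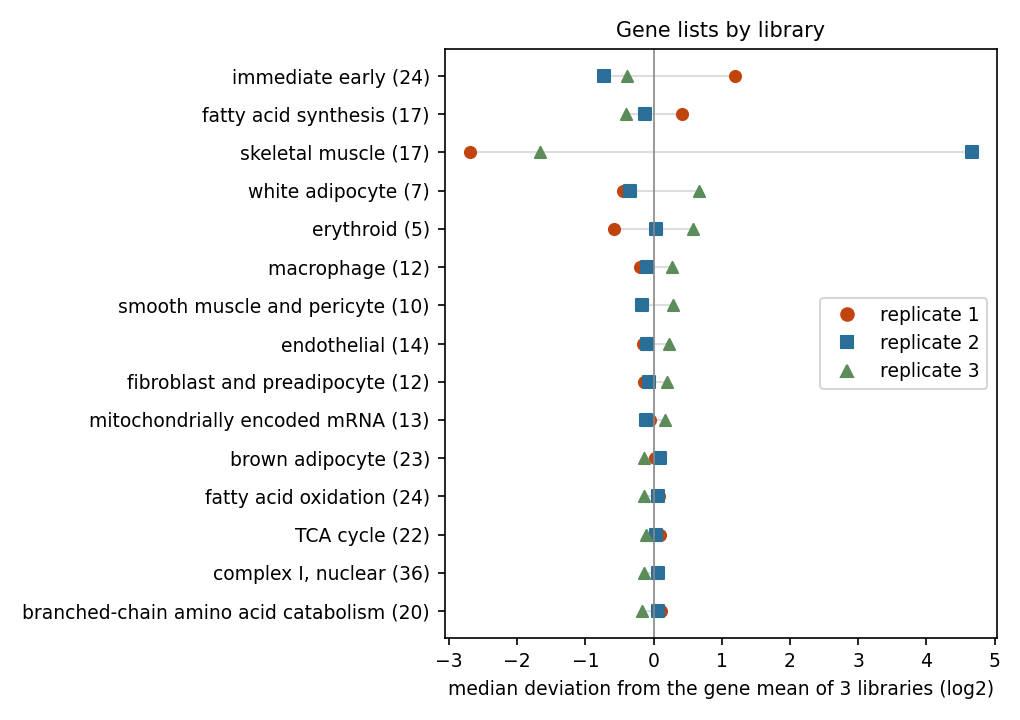
Median deviation of each gene list from the mean of the 3 libraries (log2 FPKM with 0.1 added), with 1 point per library and the number of genes averaging 1 FPKM or more in brackets. Replicate 1 is highest for immediate early genes (1.19), replicate 2 for skeletal muscle (4.66) and replicate 3 for white adipocyte genes (0.66).

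Against these 3 sets, many genes hardly moved. Among genes averaging 20 FPKM or more the smallest CV was that of Arf1, a small GTPase of the Golgi, with 116, 116 and 116 FPKM. Ivns1abp, Rpl10, Ran, Itm2b, Prdx2, Cst3, Leprot, Ubb and Rnaseh2c came next, with CVs up to 0.00790. Of the genes commonly used as references Rplp0 (CV 0.0161), Eef1a1 (0.0202) and Hprt (0.0354) were steady, Actb (0.218) was less so, and Gapdh (0.784) was not. Clock genes, whose levels depend on the hour, were even in some members and not in others. Nr1d1, at the level given above, and Tef (34.3, 35.9 and 36.7 FPKM) hardly differed between libraries. Dbp, an output of the clock, had 19.5, 14.1 and 20.7 FPKM, and Arntl, which oscillates opposite to Nr1d1, 0.858, 0.751 and 0.935 FPKM. Per2, a core repressor, had 2.37, 6.46 and 5.73 FPKM and was lowest in replicate 1. Hours of sampling were not given in the sources used here.

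**Figure D5:**
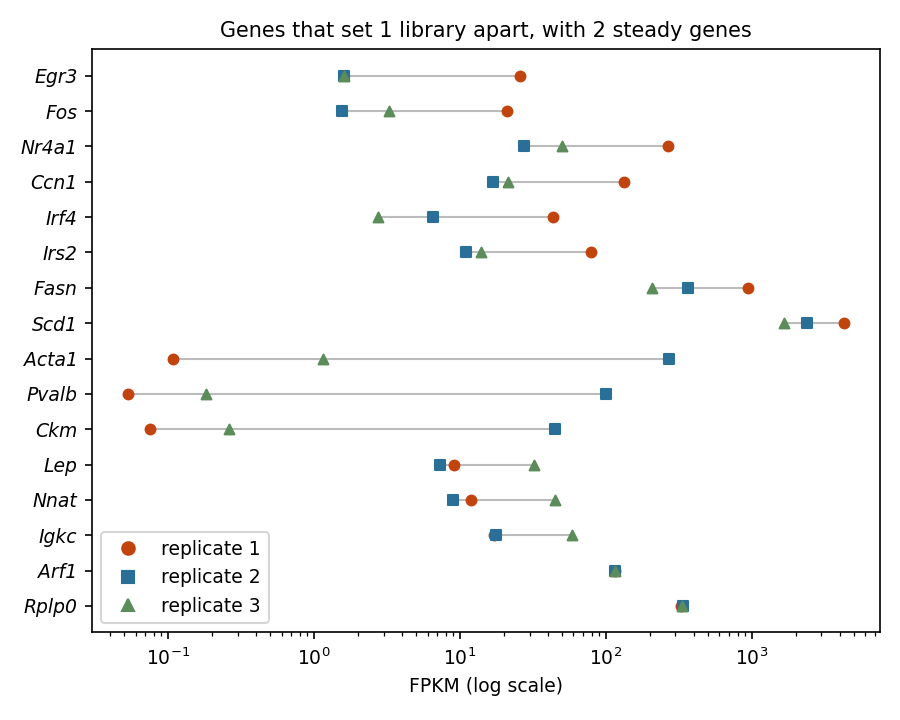
FPKM (log axis) in each library of 14 genes that set a single library apart and of the steady genes Arf1 and Rplp0. Replicate 1 is highest for Egr3 to Scd1, replicate 2 for Acta1 to Ckm and replicate 3 for Lep to Igkc.

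The m6A machinery that the study manipulates was expressed with most members far below the metabolic genes above. The highest was Hnrnpa2b1, an RNA-binding protein proposed as a reader, at 98.1, 90.98 and 85.7 FPKM. Wtap (ENSMUSG00000060475, chr17:12966796-12994169), the regulatory subunit of the RNA methyltransferase complex, had 8.002, 8.63 and 8.16 FPKM from its floxed alleles. The catalytic subunit Mettl3 had 2.25, 2.09 and 2.32 FPKM and its partner Mettl14 2.14, 1.94 and 2.41 FPKM, below the accessory subunits Zc3h13 (7.33 ± 0.956 FPKM), Virma (6.89 ± 0.457) and Rbm15 (5.90 ± 1.46). The demethylase Alkbh5 had 18.9, 19.96 and 15.9 FPKM and Fto 4.13, 3.92 and 4.02 FPKM. Among the readers Ythdf3 (18.6 ± 0.578 FPKM) and Ythdf1 (12.7 ± 1.10) exceeded Ythdf2 (6.67 ± 1.001), whereas Igf2bp1 was at 0. 19 of 22 genes averaged at least 1 FPKM and none of them had a 2-fold range, with a median CV of 0.0869. This was near the values for all genes between 5 and 20 FPKM, of which 3.38% had such a range, with a median CV of 0.0945. Members such as Mettl3 and Fto lay lower. Between 1 and 5 FPKM 14.6% of all genes had such a range, with a median CV of 0.160.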

How the data were processed

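Total RNA was extracted from iBAT, and its libraries were sequenced as paired reads on an Illumina NovaSeq instrument. Per the study's methods and the submitters' processing notes, the authors aligned reads with HISAT2 2.0.5 to GRCm38.p6 and counted them per gene with featureCounts 1.5.0-p3, and strand settings were not given in the sources used here. FPKM is the unit the authors deposited. Every FPKM multiplied by its gene length was a whole multiple of a single constant per library within 0.01, which gave back read totals. The constant implied 0.954 times the recovered total in replicate 1 and 0.988 times in replicate 3, so it was not the assigned total alone.

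Means, SDs, CVs, ranks and shares of recovered reads were computed in Python 3.11.15 with pandas 2.3.3 and numpy 2.4.6. A gene entered the spread values at a mean of 1 FPKM, and ranges were taken after adding 0.1. The biological coefficient of variation came from the median Pearson statistic of the recovered reads. An edgeR dispersion with a DESeq2 alternative had been planned, but these count models were not run. The replacement was tested on simulated counts in which all genes shared a single biological coefficient of variation. It was not tested on counts where that spread differs between genes. 55154 gene IDs were matched to GENCODE M21, from whose transcripts all 75-base windows were compared between genes. Promoters are RefSeq GRCm38.p6.

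Genes were named by a rule: the markers, the 30 highest, the 4 highest, the lowest and the most variable of each list, the 10 most apart in each library at a mean of 5 FPKM or more, and the 10 steadiest at 20 FPKM or more. Other list members were named for their role after their values were seen. The 4 genes with printed promoters were likewise chosen with their values known. The libraries, lists and rules were chosen with earlier results of these data known. Some items are not reported here.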

Additional observations from a re-analysis of the deposited data

How the results depend on the processing

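Counts and spread depended on the minimum level and on the number of libraries. Genes at the minimum in every library numbered 6049 at 5 FPKM. The 10 genes with most reads took 7.15% of reads without mitochondrially encoded genes and 37.9% of the summed FPKM. Mitochondrially encoded genes took 40.2% of the summed FPKM. Ucp1 ranked 7 over nuclear protein-coding genes and 20 by reads. The median CV was 0.133 at 0.5 FPKM and 0.0940 at 5 FPKM, and leaving out a library gave 0.0832 to 0.108. The biological coefficient of variation was 0.223 with no filter, 0.203 from the mean statistic, an alternative chosen after seeing the data, and 0.105 to 0.141 with a library left out. Genes with a 2-fold range numbered 465 among protein-coding genes, 645 with 1 FPKM added, 1855 at 0.5 FPKM, 246 at 5 FPKM and 577 to 671 with a library left out, where fewer libraries leave less room for a range. Skeletal muscle genes took 0.0962% of reads on average and 0.0154% without replicate 2. For list members highest or lowest in a library, the 5 other scalings were added after seeing the data. They left the counts for immediate early, fatty acid synthesis, skeletal muscle, white adipocyte and mitochondrially encoded genes as they were. Leaving out a library moved the level of 50 of 260 named genes at 1 FPKM or more by over 1.5 times, 17 of them most without replicate 1, 21 without replicate 2 and 12 without replicate 3. It moved 17 of 165 list medians by 1 SD, and keeping only members at 1 FPKM moved 28 of 54 medians. TPM multiplied FPKM by 2.31 to 2.41. The edgeR dispersion and its DESeq2 alternative were not run. No paired analysis was possible because a single group was described and no test was made. The 3 libraries limit every SD, and the counting CV covers counting error only.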

Other observations

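Chaperones and antigen presentation genes included a few abundant members. The 21 chaperone genes had a median of 42.8 FPKM, with 5 at 100 FPKM or more, and the 18 interferon and antigen presentation genes a median of 13.05 FPKM, with 4 at 100 or more. The cytosolic Hsp90ab1 had 383, 344 and 436 FPKM and the mitochondrial Hspd1 and Hspa9 averaged 287 ± 18.6 and 253 ± 34.2 FPKM. B2m, the light chain of MHC class I, had 817, 693 and 1018 FPKM and H2-D1, a heavy chain, 319.8, 296 and 373 FPKM. 11 of 18 interferon and antigen presentation genes were highest in replicate 3 and 13 lowest in replicate 2, against 30.8% and 27.4% of all genes.

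The integrated stress response was present at moderate levels. Atf4, its main transcription factor, had 79.3, 60.2 and 53.8 FPKM and its target Asns, asparagine synthetase, 17.1, 18.3 and 17.8 FPKM, which hardly differed between libraries. Ppp1r15a, which reverses the response, had 27.6, 9.16 and 11.3 FPKM and was highest in replicate 1, like the immediate early genes. Mast cell genes were low but uneven, with the protease Cma1 at 0.962, 2.59 and 0.930 FPKM. B cell genes differed among themselves: Jchain, which joins secreted immunoglobulins, had 2.08, 1.54 and 6.87 FPKM with replicate 3 highest, as Igkc, while the membrane gene Cd79a (2.54, 1.77 and 2.17 FPKM) was not highest there.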
